A study of Mus musculus with 6 samples.

Results

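In CD11b+ cells of the mouse cortex, 10 genes that carry or hold back signals from Toll-like receptors (TLRs) were examined. They were taken from the deposited table by symbol, and all 10 were present among its 16516 genes and among the 13151 that passed a filter on low counts. They are the adaptors Myd88 and Ticam1, the kinases Irak1, Irak2 and Irak4, the ubiquitin ligase Traf6, and 4 genes known as brakes, Irak3, Tollip, Tnip1 and Tnfaip3.

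The RNA-seq data comprise 3 samples of the NS group and 3 of the 4LPS group, from male wild-type C57BL6/J mice aged 8 to 10 weeks. The 4LPS mice had received an intraperitoneal injection of lipopolysaccharide (LPS; Escherichia coli 055:B5) at 500 µg/kg on each of 4 days in a row, and the NS mice had received normal saline on the same schedule. Cortices were taken 7 days after the first injection, the cells were bound to anti-CD11b magnetic beads, and each sample holds the RNA of 2 pooled mice. Total counts were 15158342 to 15746606 in NS and 15164123 to 15462396 in 4LPS. Levels are given as CPM (counts scaled to a common library total) after TMM scaling, with mean ± SD over n = 3 samples per group, and fold changes and p-values come from edgeR's quasi-likelihood test fitted across all genes with Benjamini-Hochberg adjustment.

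LPS is sensed by Tlr4, whose cytoplasmic part recruits the adaptor MyD88 or, from endosomes, TRIF, the product of Ticam1. MyD88 assembles with IRAK4, IRAK1 and IRAK2, which engage TRAF6 and lead to the activation of NF-κB, while TRIF also leads to interferon genes. Cells of the myeloid lineage that meet LPS repeatedly respond less to it, a state called endotoxin tolerance, and proteins that hold back the pathway at the IRAK or ubiquitin step are known for their part in it.

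In 4LPS samples, 2 of the 4 brakes were higher and the core relay was nearly level. Irak3, which encodes the inhibitory IRAK-M, had a 2.36-fold higher level than in NS, and Tnip1, which encodes the A20 partner ABIN1, a 2.12-fold higher level. Of the 10 genes, 2 passed at an adjusted p under 0.05, both upward, beside 16.4% of all genes tested (9.95% higher and 6.43% lower), so their number did not stand out from the table as a whole. The other 8 did not pass. For 7 of these 10 genes the 95% interval of the log2 fold change lay within 0.5 on either side of 0, which held for 56.9% of all genes tested. The CPM values of the groups did not overlap for Irak2, Irak3, Irak4 and Tnip1, which were higher in 4LPS, and for Tollip, which was lower. Of all genes tested, 37.4% had no overlap, 19.9% with 4LPS above and 17.5% with 4LPS below.

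**Figure D1:**
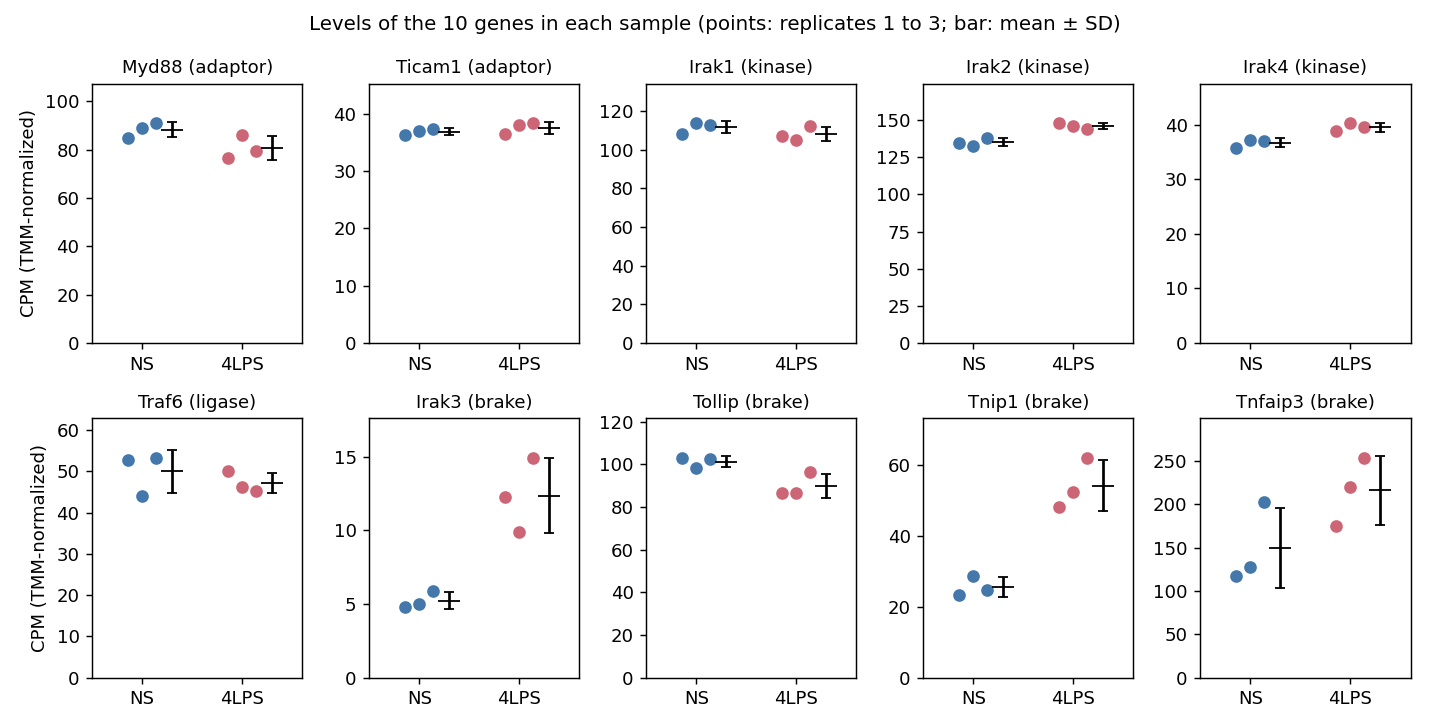
TMM-normalized CPM (y axis, from 0) of each of the 10 genes in the 3 NS (blue) and 3 4LPS (red) samples. Points are replicates 1 to 3 from left to right and bars are mean ± SD. Irak3 and Tnip1 lie at 4.78 to 5.89 and 23.4 to 28.6 CPM in NS and at 9.86 to 14.9 and 48.1 to 62.0 CPM in 4LPS, while Tnfaip3 overlaps between groups through NS replicate 3.

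The labels call the samples microglia. All 12 microglial markers were present in every sample, and their summed level was 48990 to 51850 CPM in NS and 48540 to 49120 CPM in 4LPS, against 4.59 to 6.20 and 10.5 to 13.7 CPM for 8 T cell markers. P2ry12 was lower and Aif1 higher among the 12, and the other 10 did not pass. Other cells were present too and differed between groups. Over 14 NK cell markers, of which 12 were higher, the sum was 9.88 to 16.6 CPM in NS and 152 to 174 CPM in 4LPS, and Klrg1 had no count in NS replicate 1. Over 12 neutrophil markers, of which 1 was higher, the sum was 925 to 1508 CPM in NS and 1406 to 2135 CPM in 4LPS, with no marker at 0. Csf3r, the 1 that was higher, made up 697 to 749 CPM of this sum in NS and 846 to 923 CPM in 4LPS, while Ly6g averaged 1.83 and 3.27 CPM. Over 10 astrocyte markers, of which 6 were lower, the sum was 394 to 427 CPM in NS and 290 to 308 CPM in 4LPS, and 3 of 10 endothelial markers were lower. Of 8 dendritic cell markers 5 were higher, of 9 markers of border-associated macrophages 1 was higher, and 3 of the T cell markers were higher. No marker of monocytes, B cells, oligodendrocytes, neurons or choroid plexus passed, although the choroid plexus sum was uneven, at 1062 to 10050 CPM in NS and 18.6 to 3341 CPM in 4LPS. Of the 8 B cell markers, only Cd79b was tested (adjusted p = 0.0507). NS replicate 3 stood apart from NS replicates 1 and 2, with a mean chi-square per gene of 21.4 to 24.5 against 5.90 between those 2. In bulk samples, more cells of a type and more RNA per cell cannot be told apart.

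The adaptors were the first step examined. Myd88 lies on chromosome 9 of GRCm39 from 119165000 to 119170486, with 6 exons in its canonical transcript. In the order of replicates 1, 2 and 3, NS samples had 84.9, 89.0 and 90.9 CPM of Myd88 and 4LPS samples 76.6, 86.2 and 79.5 CPM. Later values follow the same order. The 4LPS values were mostly the lower ones, but 4LPS replicate 2 was above NS replicate 1. The log2 fold change was -0.13 (95% interval -0.27 to 0.012, adjusted p = 0.179). Myd88 passed as lower when no composition factor was used (-0.23, adjusted p = 0.0340) and in limma on log2(FPKM + 1) (-0.22, adjusted p = 0.0322), in both of which the median of all genes was itself below 0 (-0.114 and -0.0816). Ticam1, on chromosome 17 from 56576319 to 56583786, with 2 exons, held nearly the same level in every sample. Its values were 36.3, 37.0 and 37.4 CPM in NS and 36.4, 38.1 and 38.4 CPM in 4LPS, and the log2 fold change was 0.028 (95% interval -0.11 to 0.16, adjusted p = 0.776). The sign of this value turned with the scaling (-0.07 with no composition factor), so no direction is given for Ticam1.

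The 3 signalling kinases differed little between the groups. Irak4, on chromosome 15 from 94441161 to 94479696, is the kinase that binds MyD88 first. It had 35.7, 37.3 and 37.1 CPM in NS and 38.8, 40.3 and 39.5 CPM in 4LPS. Irak2, on chromosome 6 from 113615386 to 113672470, sustains the signal, and it had 134, 133 and 138 CPM in NS and 148, 146 and 144 CPM in 4LPS. Each 4LPS value was thus above each NS value for both genes, by a small step. Their log2 fold changes were 0.11 (95% interval -0.027 to 0.24, adjusted p = 0.228) for Irak4 and 0.11 (0.013 to 0.21, adjusted p = 0.111) for Irak2. The size of these steps followed the scaling, and with limma on log2(FPKM + 1) both log2 fold changes were 0.012 to 0.015. With a correction for gene length, Irak2 passed (0.18, adjusted p = 0.0188). Irak1, on chromosome X from 73056964 to 73067554, is phosphorylated by IRAK4 and degraded after strong stimulation. Its values of 108, 114 and 113 CPM in NS and 107, 105 and 112 CPM in 4LPS overlapped, with a log2 fold change of -0.043 (95% interval -0.16 to 0.071, adjusted p = 0.576).

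Traf6, the ubiquitin ligase on which the IRAK branch converges, lies on chromosome 2 from 101508519 to 101533545. It had 52.7, 44.0 and 53.2 CPM in NS and 49.98, 46.2 and 45.3 CPM in 4LPS. NS replicate 2 was the lowest of all 6 samples, so the groups overlapped, and the log2 fold change was -0.084 (95% interval -0.28 to 0.12, adjusted p = 0.532). The sign of the log2 fold change turned for Irak1 and Traf6 under the length correction (0.043 and 0.045), so no direction is given for these genes either.

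**Figure D2:**
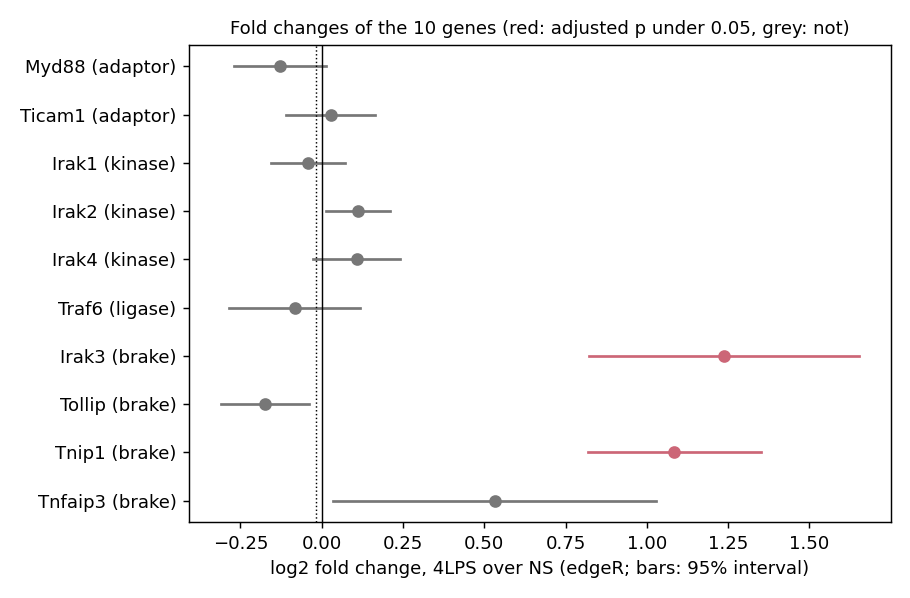
Log2 fold change of 4LPS over NS (x axis) for the 10 genes, with points at edgeR estimates and bars spanning 95% intervals (n = 3 per group). The dotted line is the median of all 13151 genes (-0.016). Irak3 (1.24) and Tnip1 (1.08), in red, have intervals above 0.8, Tnfaip3 has the widest interval (0.036 to 1.03), and the other genes lie between -0.17 and 0.11.

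Among the brakes, Irak3 had the largest relative difference of the 10 genes. It encodes IRAK-M, a member of the IRAK family with little kinase activity that is found mainly in monocytes and macrophages and keeps the other IRAKs from leaving the receptor complex. Irak3 lies on chromosome 10 of GRCm39 from 119975568 to 120038035, on the minus strand, and its canonical transcript has 12 exons. It was sparsely sequenced, with 76, 80 and 95 counts in NS and 182, 145 and 220 counts in 4LPS. The level was 4.78, 5.03 and 5.89 CPM in NS and 12.3, 9.86 and 14.9 CPM in 4LPS. The lowest 4LPS sample stood well above the highest NS sample, while the 4LPS samples were spread more widely (coefficient of variation 20.5%) than the NS samples (11.1%). The log2 fold change was 1.24 (standard error 0.18, 95% interval 0.82 to 1.65, adjusted p = 0.00361). With each of the 6 samples left out it was 1.09 to 1.39 (adjusted p = 0.00367 to 0.0211). The summed NK cell markers had the same order among the 4LPS samples (166, 152 and 174 CPM in replicates 1 to 3). So had those of dendritic cells (45.8, 37.45 and 49.5 CPM) and B cells (21.9, 21.7 and 22.1 CPM). The summed neutrophil markers had another order (2135, 1406 and 1769 CPM). The part of NK cells, neutrophils or other cells in the rise of Irak3 was not tested.

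Tnip1 had the smallest adjusted p of the 10 genes. It encodes ABIN1, a protein that binds ubiquitin chains and brings the enzyme A20, the product of Tnfaip3, to its targets. Tnip1 lies on chromosome 11 from 54796320 to 54854661, on the minus strand, and its canonical transcript has 18 exons. The level was 23.4, 28.6 and 24.7 CPM in NS and 48.1, 52.5 and 62.0 CPM in 4LPS. No 4LPS sample came near the NS range. The log2 fold change was 1.08 (standard error 0.11, 95% interval 0.82 to 1.35, adjusted p = 7.66e-04), and it was 0.99 to 1.17 with each sample left out (adjusted p = 0.00162 to 0.00555). Irak3 and Tnip1 passed as higher in each of the 19 alternative fits.

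In CPM, which takes no account of gene length, Tnfaip3 was the most abundant of the 4 brakes. It had a coefficient of variation of 31.1% in NS and 18.3% in 4LPS. It encodes A20, an enzyme that edits ubiquitin chains on TRAF6 and RIPK1 and so ends NF-κB activation, and it is itself a target gene of NF-κB. Tnfaip3 lies on chromosome 10 from 18874201 to 18891405, on the minus strand, with 9 exons. The level was 118, 128 and 203 CPM in NS and 175, 220 and 254 CPM in 4LPS. NS replicate 3 lay above 4LPS replicate 1 and within the 4LPS range, while NS replicates 1 and 2 lay below all 4LPS samples. The log2 fold change was 0.53 (standard error 0.21, 95% interval 0.036 to 1.03, adjusted p = 0.127), and Tnfaip3 did not pass. Among the 6 omissions of 1 sample, it passed when NS replicate 3 was left out, higher by 0.82 on the log2 scale (adjusted p = 0.00756). With any other sample left out it was 0.39 to 0.67 and did not pass (adjusted p = 0.0903 to 0.315).

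The summed level of 19 NF-κB target genes, a list that does not hold Tnfaip3, was 491, 508 and 725 CPM in NS and 768, 847 and 1103 CPM in 4LPS. NS replicate 3 was thus the highest NS sample in this sum as well as in Tnfaip3, and 4LPS replicate 3 the highest 4LPS sample in both. NS replicate 3 was also the highest NS sample in the summed markers of neutrophils (1508 CPM against 960 and 925), monocytes (314 against 186 and 139), border-associated macrophages (429 against 293 and 318), endothelial cells (895 against 582 and 472) and oligodendrocytes (602 against 393 and 369). NS replicate 3 also led the NS samples in the sums of microglia, NK cells, T cells, B cells, dendritic cells and astrocytes. In choroid plexus markers it was instead the lowest by far (1062 CPM against 10050 and 8440). In neuron markers NS replicate 1 was the highest (26.1 CPM, against 24.6 in NS replicate 3). In 4LPS, replicate 1 was the highest in neutrophil (2135 CPM), monocyte (267 CPM) and border-associated macrophage (536 CPM) markers and the lowest in Tnfaip3. Replicate 2 was the highest in oligodendrocyte markers (406 CPM) and replicate 3 in endothelial markers (518 CPM). The part of these cells in the values of Tnfaip3 was not tested. Tnip1 did not share the order of Tnfaip3 in NS, where replicate 2 was the highest. It did share that order in 4LPS, at 48.1, 52.5 and 62.0 CPM of Tnip1 beside 175, 220 and 254 CPM of Tnfaip3.

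Of these 4 brakes, Tollip alone had lower values in 4LPS. It encodes a protein that binds IRAK1 and receptor tails and links them to ubiquitin and endosomes. Tollip lies on chromosome 7 from 141428550 to 141472244, with 6 exons. The level was 103, 98.3 and 103 CPM in NS and 86.5, 86.7 and 96.3 CPM in 4LPS. The groups did not overlap, but 4LPS replicate 3 was close to NS replicate 2. The log2 fold change was -0.17 (standard error 0.059, 95% interval -0.31 to -0.038, adjusted p = 0.0813), and Tollip did not pass. It passed as lower with no composition factor (-0.27, adjusted p = 0.0152) and in limma on log2(FPKM + 1) (-0.26, adjusted p = 0.0214).

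The sequences before the annotated starts of the 3 brakes with the largest log2 fold changes were compared, because NF-κB binds a known DNA motif and Tnfaip3 is a textbook target of it. They are the 250 bases before the outermost RefSeq start of each gene (GRCm38.p6, minus strand, shown 5′ to 3′), with matches to the κB consensus on either strand in capitals.
Tnip1, chr11:54962941-54963190: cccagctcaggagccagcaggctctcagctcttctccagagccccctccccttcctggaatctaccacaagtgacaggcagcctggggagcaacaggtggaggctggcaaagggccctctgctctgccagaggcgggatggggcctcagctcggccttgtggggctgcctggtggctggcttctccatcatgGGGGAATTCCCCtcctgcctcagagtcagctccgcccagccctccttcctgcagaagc
Tnfaip3, chr10:19015411-19015660: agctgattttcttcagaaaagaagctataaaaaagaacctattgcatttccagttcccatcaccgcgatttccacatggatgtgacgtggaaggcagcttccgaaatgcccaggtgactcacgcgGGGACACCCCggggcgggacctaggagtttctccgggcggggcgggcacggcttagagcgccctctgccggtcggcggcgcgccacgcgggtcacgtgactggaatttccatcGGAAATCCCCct
Irak3, chr10:120202131-120202380: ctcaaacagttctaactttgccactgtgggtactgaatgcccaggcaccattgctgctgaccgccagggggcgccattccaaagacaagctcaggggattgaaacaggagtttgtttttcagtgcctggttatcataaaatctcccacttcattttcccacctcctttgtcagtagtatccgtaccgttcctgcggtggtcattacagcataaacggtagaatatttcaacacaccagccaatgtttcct
Tnip1 held 3 overlapping matches that form 1 palindromic run and begin 58, 57 and 56 bases before the start. Tnfaip3 held 2 separate matches, 125 and 12 bases before the start, and no match in the window of its second annotated start. Irak3 had no match in this window or in that of its second annotated start, and neither did any of the other 7 genes. A match was found for 5.48% of the 10567 tested genes with a RefSeq window, at 1 or more of their starts. Of other motifs searched on both strands, the AP-1 motif TGANTCA (5.40% of genes) occurred in Tnfaip3, the STAT motif TTCNNNGAA (7.19%) in Myd88 and Tnip1, apart from the κB run in the latter, and the interferon-stimulated response element (3.38%) in Myd88. These matches describe letters in these windows only, and no binding was measured.

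Per unit of length, the order of the 10 genes differed from that of their differences. In the authors' FPKM values, which take gene length and sequencing total into account, Myd88 was the most abundant in NS at 55.1 ± 1.42 FPKM (SD, n = 3), followed by Irak2 at 47.9 ± 0.971 FPKM. Tnfaip3 (37.3 ± 11.3 FPKM), Irak1 (34.0 ± 0.457 FPKM) and Tollip (30.0 ± 1.00 FPKM) came next, and the spread of Tnfaip3 covered both of its neighbours and reached Irak2. Ticam1 (14.97 ± 0.108 FPKM) and Irak4 (14.9 ± 0.176 FPKM) did not differ beyond their spread. Tnip1 (10.5 ± 1.04 FPKM), Traf6 (8.85 ± 0.937 FPKM) and Irak3 (1.97 ± 0.201 FPKM) were the lowest. In 4LPS, Tnip1 at 20.8 ± 2.78 FPKM had moved above Irak4 (15.1 ± 0.244 FPKM) and Ticam1 (14.3 ± 0.298 FPKM), with no overlap between samples. At the top, Tnfaip3 (50.5 ± 8.82 FPKM), Irak2 (48.4 ± 1.09 FPKM) and Myd88 (47.2 ± 2.67 FPKM) did not differ beyond their spread. Irak3 remained the lowest of the 10 genes at 4.34 ± 0.870 FPKM, and among all genes tested its level went from the 20.4th to the 33.9th percentile.

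Within the IRAK family, Irak3 took a larger share of the mRNA in 4LPS. Of the summed FPKM of Irak1, Irak2, Irak3 and Irak4, NS samples held 1.86%, 1.91% and 2.21% as Irak3 and 4LPS samples 4.35%, 3.57% and 5.20%. The share of Irak1 was 34.3%, 35.1% and 33.8% in NS and 31.3%, 30.6% and 32.5% in 4LPS. Both shares separated the groups, whereas those of Irak2 (48.5% ± 0.741 in NS and 48.9% ± 1.42 in 4LPS) and Irak4 (15.1% ± 0.207 and 15.2% ± 0.541) overlapped. For every Irak4 transcript per length there were 0.132 ± 0.013 of Irak3 in NS and 0.289 ± 0.0613 in 4LPS (SD, n = 3 samples per group). In every sample Irak3 had the smallest share of the family. The ratio of Ticam1 to Myd88 was 0.272 ± 0.00567 in NS and 0.303 ± 0.0136 in 4LPS. The ratio of Tnfaip3 to Tnip1 was 3.08, 2.73 and 5.004 in NS and 2.22, 2.59 and 2.46 in 4LPS. Each of these 2 ratios also separated the groups. Over 7 shares and ratios, the shares of Irak1 and Irak3 and the 3 ratios each gave a two-sided exact permutation p of 0.1 (adjusted p = 0.14), which is the smallest that 3 samples against 3 allow, so none could pass.

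**Figure D3:**
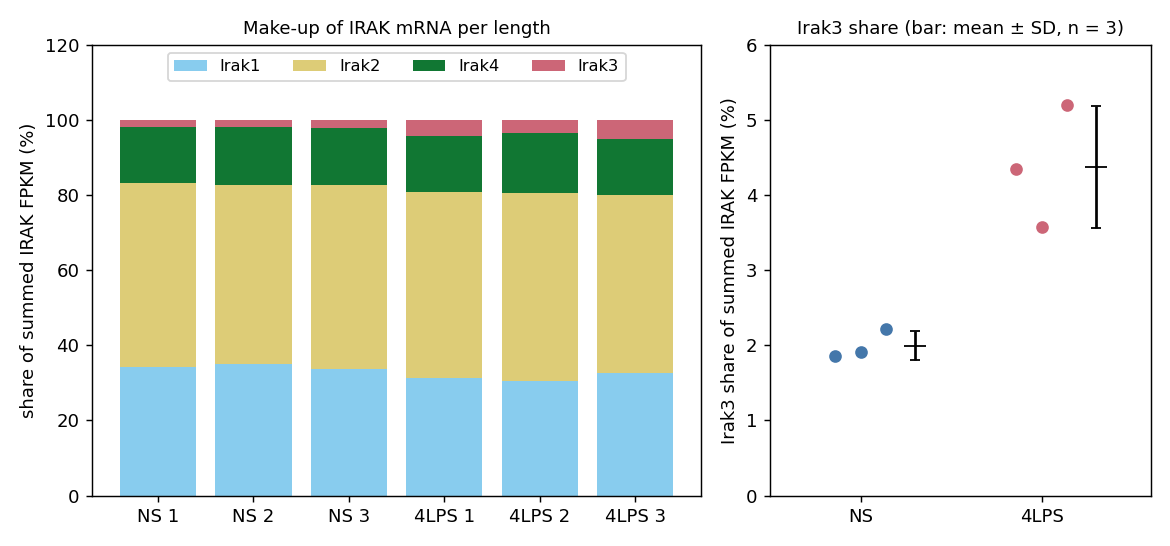
Left, the percentage (y axis) of summed IRAK FPKM held by Irak1, Irak2, Irak4 and Irak3 in each of the 6 samples. Right, the Irak3 percentage alone by group, with points for samples and bars for mean ± SD (n = 3). The Irak3 share is 1.86% to 2.21% in NS and 3.57% to 5.20% in 4LPS.

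Genes with the most similar pattern were sought for the 2 genes that passed, as the smallest root mean square difference in log2 CPM, each gene centred on its own mean, over the 6 samples and 10256 genes with at least 5 CPM. Nearest to Tnip1 were Adap1, a regulator of ARF GTPases (0.0542), and the ribosomal protein genes Rpl10a (0.0784) and Rps20 (0.0836). Near to Irak3 were Pirb, an inhibitory receptor for MHC class I (0.0708), and Sh3pxd2b, an adaptor of podosomes (0.0841). Pirb and the ribosomal protein genes have near-identical relatives or pseudogenes in the genome, so their own counts are uncertain. The log2 fold changes of these 5 genes were 1.02 to 1.23. That they were near those of Tnip1 and Irak3 follows from the search itself, which covered the samples of both groups.

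The other genes of the pathway were read from the same fit. Of 83 further genes tested in 5 lists, 29 were higher, Tlr5 was lower and 53 did not pass, beside 9.95% of all genes higher and 6.43% lower. The number higher was 18 without NS replicate 1 and 19 without 4LPS replicate 3. The median log2 fold change was 0.26 over the receptors, 0.077 over other adaptors and kinases, 0.14 over other brakes, 0.68 over NF-κB targets and 0.96 over TRIF and interferon targets, against 0.068 over the 10 genes and -0.016 over all genes tested.

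Upstream, 9 of 22 receptors and co-receptors were higher and 12 did not pass. The largest log2 fold changes among the 9 were those of Il18r1 and Il18rap, the subunits of the interleukin-18 receptor, which NK cells carry, and both were named after their values were seen. Il18r1 had 0.4999 ± 0.223 CPM in NS and 4.31 ± 1.11 CPM in 4LPS (3.09, adjusted p = 0.00169), and Il18rap had 3.58 ± 1.91 and 12.01 ± 1.29 CPM (1.74, adjusted p = 0.0104). The summed NK cell markers were 9.88 to 16.6 CPM in NS and 152 to 174 CPM in 4LPS, and their part in these values was not tested. Tlr2, which senses bacterial lipoproteins, rose from 144 ± 15.1 CPM to 302 ± 36.4 CPM, and its partner Tlr1 from 64.0 ± 4.89 to 108 ± 5.78 CPM (log2 fold changes of 1.07 and 0.75, with 4.59e-04 and 4.35e-04 as adjusted p). Cd14, which hands LPS to Tlr4, rose from 296 ± 17.2 to 444 ± 29.6 CPM (0.58, adjusted p = 0.00108). Tlr5, the receptor for flagellin, fell from 45.1 ± 3.11 to 21.2 ± 1.48 CPM (-1.09, adjusted p = 1.60e-04). Tlr4 itself, named here after its values were seen because it is the LPS receptor, had 185 CPM in NS and 201 CPM in 4LPS on average (0.12, adjusted p = 0.421). The number of higher receptors was 5 when NS replicate 1 was left out, and also for 4LPS replicate 1 and for 4LPS replicate 3.

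Of 20 other adaptors and kinases, 4 were higher and 16 did not pass. Ikbke, which encodes a kinase of the TRIF branch, had 1.44 ± 0.321 CPM in NS and 6.21 ± 1.72 CPM in 4LPS (log2 fold change 2.10, adjusted p = 0.00256). Map3k8, the kinase Tpl2 that drives ERK after TLR signals, Traf3, an adaptor of the interferon branch, and Tbk1, the kinase paired with IKKε, gained 0.84, 0.53 and 0.22 log2 units (adjusted p = 0.00314, 0.00321 and 0.0440). Tbk1 kept the threshold in 8 of 19 alternatives and lost it with NS replicate 1, NS replicate 2 or any 4LPS sample left out.

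Of 16 other brakes, Ptpn6 and Cyld were higher and 14 did not pass. Ptpn6 encodes the phosphatase SHP-1 and rose from 391 ± 18.9 to 507 ± 37.9 CPM (log2 fold change 0.38, adjusted p = 0.00870). Cyld, a deubiquitinase, was higher by 0.21 on the log2 scale (adjusted p = 0.0246), and it lost the threshold with NS replicate 1, NS replicate 2, 4LPS replicate 1 or 4LPS replicate 3 left out, with no composition factor (adjusted p = 0.133) and in the 3 limma fits (adjusted p = 0.200 to 0.231). Both values were smaller than those of Irak3 and Tnip1. The test of that difference was not made.

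Downstream, 6 of 16 NF-κB target genes were higher and 10 did not pass. Nfkb2 and Relb, which encode the NF-κB subunits of the slower, non-canonical arm, rose from 44.7 ± 2.02 to 86.0 ± 9.64 CPM and from 23.1 ± 0.106 to 41.3 ± 4.99 CPM (adjusted p = 3.77e-04 and 0.00105). Birc3, a ubiquitin ligase, and Bcl3, an atypical IκB protein, gained 0.59 and 1.39 log2 units (adjusted p = 0.00235 and 0.00522). Without NS replicate 3, 12 NF-κB targets passed as higher. Of 9 TRIF and interferon target genes, 8 were higher and Isg15 did not pass (log2 fold change 0.45, adjusted p = 0.248). They included Irf7 (0.96, adjusted p = 0.00935), Ifih1, a sensor of viral RNA (0.38, adjusted p = 0.0122, and 0.0561 to 0.0870 in the 3 limma fits), and Rsad2, an antiviral enzyme (1.08, adjusted p = 0.0171). Ccl5, which had the largest value (5.26, adjusted p = 2.77e-05), is also made by NK cells, whose summed markers were 152 to 174 CPM in 4LPS against 9.88 to 16.6 CPM in NS, and their part in it was not tested. The number of higher genes in this list fell to 4 when NS replicate 1 was left out, to 3 for 4LPS replicate 1 and to 5 for 4LPS replicate 2, and Rsad2 did not pass without 4LPS replicate 1.

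**Figure D4:**
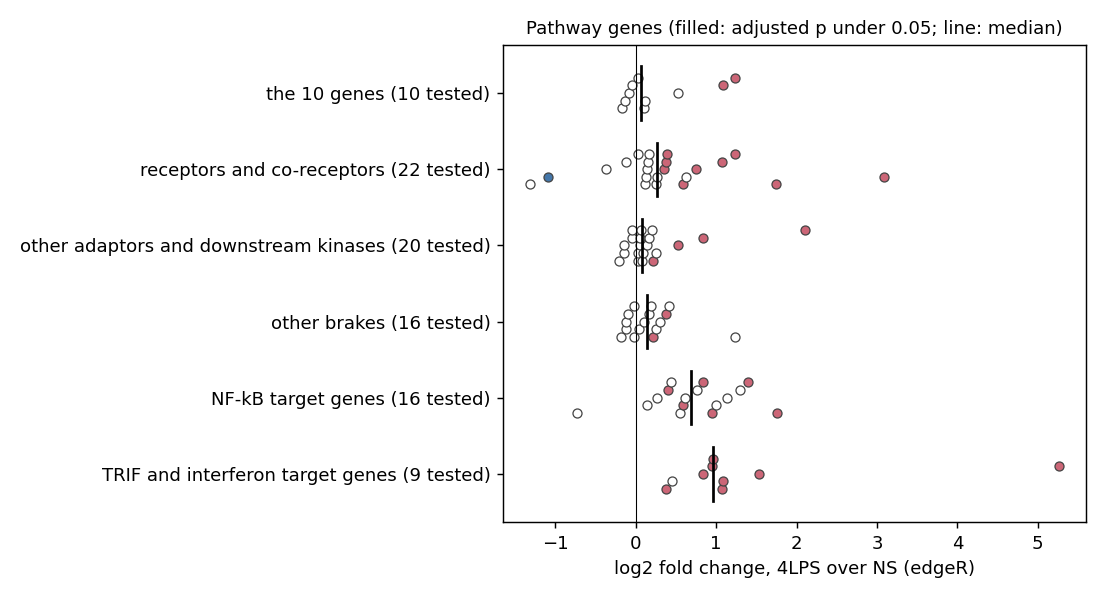
Log2 fold change of 4LPS over NS (x axis) for the 10 genes and for the other pathway genes tested, with 1 point per gene. Filled points had an adjusted p under 0.05 (red higher, blue lower), and black lines are medians, from 0.068 for the 10 genes to 0.96 for TRIF and interferon targets.

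Across 19 alternative fits, the ranges of the log2 fold changes of Irak3 and Tnip1 lay above those of the other genes. The range of Tnfaip3, which passed in 3 of these fits, came close to that of Irak3, but the nearest values came from different fits. Irak3 was lowest (0.83) in limma on log2(FPKM + 1), where Tnfaip3 was 0.45. Tnfaip3 was highest (0.82) without NS replicate 3. Irak3 had log2 fold changes of 0.83 to 1.39 and Tnip1 of 0.92 to 1.17. Those of Tnfaip3 were 0.39 to 0.82, and those of the remaining 7 genes lay between -0.27 and 0.18.

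**Figure D5:**
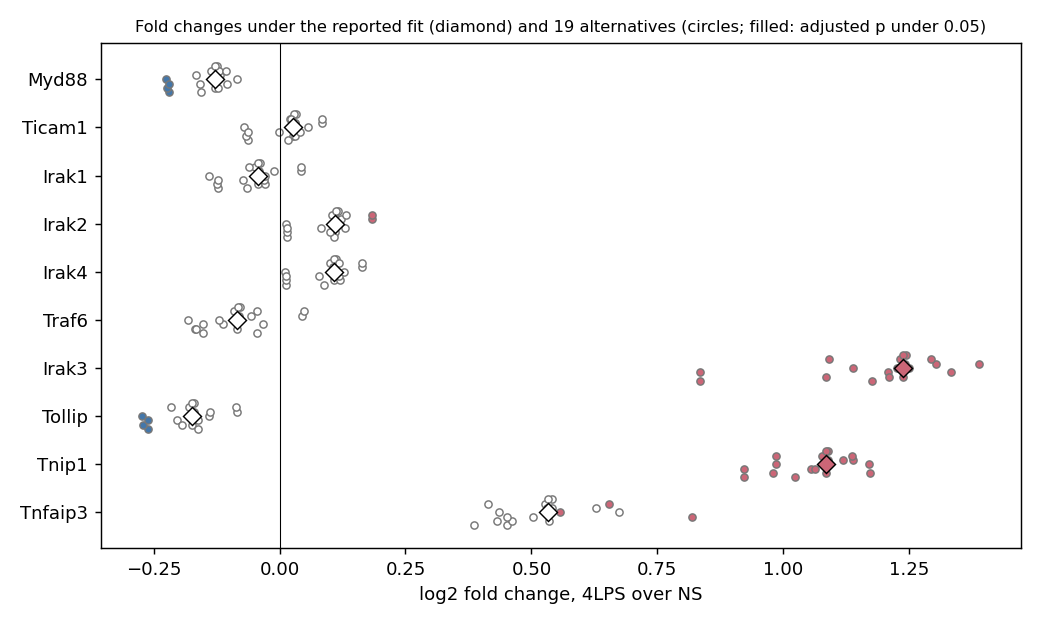
Log2 fold change of 4LPS over NS (x axis) for each of the 10 genes in the reported fit (diamonds) and in 19 alternatives (circles), filled where the adjusted p was under 0.05. Irak3 and Tnip1 are filled in all of these fits and Tnfaip3 in 3 alternatives, while Myd88 and Tollip are filled in 4 alternatives each, all below 0, and Irak2 in 2 above 0.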

How the data were processed

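The study sequenced RNA of bead-isolated CD11b+ cortical cells, with 2 mice per library and 3 libraries per group, and the titles give each library's treatment and number. The authors aligned clean reads with HISAT2 2.0.4 and Bowtie2 2.2.5 to mm39 (the submitters' notes also list mm10), quantified genes with RSEM 1.2.8 and tested them with DESeq2 1.16.1. For the annotation behind these values, no name or version is given in the sources used here. In the table the authors deposited, expected counts carry no normalization, and it also holds FPKM and TPM values, scaled for length and library total. A normalized signal, the count over a size factor, was also deposited. TPM, this signal and the authors' group means went unused. RSEM divides reads between genes that they match.

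After rounding (2.77% of the expected counts held a fraction), edgeR 4.0.16 in R 4.3.3 applied TMM, filterByExpr and its quasi-likelihood F-test. Adjustment by Benjamini-Hochberg covered 13151 genes at a threshold of 0.05. Standard errors were obtained as the absolute log2 ratio over the root of F. The code was tested on simulated data. The 19 alternatives were RLE, upper-quartile or no factors, an absent or a stricter low-count filter (50 counts in 3 samples), DESeq2 1.42.0, 3 limma 3.58.1 fits to log2(FPKM + 1) or log2(FPKM + 0.1), with or without a minimum of 1 FPKM in 3 samples, blocking on the replicate number, a loess adjustment for gene length, both of these together, removal of other cell types' markers, and removal of each sample. Gene coordinates come from GENCODE on GRCm39 and the windows before gene starts from RefSeq on GRCm38.p6, and all 10 genes matched by symbol in each. The genes and lists were chosen with earlier results of these data known. Named beside them are up to 4 genes per list with the smallest adjusted p under 0.05, and the 3 genes nearest in pattern to each of the 10 that passed, of which 1 is not reported here. Tlr4, Isg15, Il18r1, Il18rap and single cell type markers were named after their values were seen.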

Additional observations from a re-analysis of the deposited data

How the results depend on the processing

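The calls for Irak3, Tnip1 and Irak4 were the same under all 19 alternatives, and no call among the 10 genes was lost under any. Of 13151 genes, 1308 were higher and 845 lower (60.8% higher). Without a composition factor, 906 were higher and 1711 lower (34.6% higher), 4 of the 10 genes passed, 2 of them lower, and 6 pathway genes were lower. In limma on log2(FPKM + 1), log2(FPKM + 0.1) and log2(FPKM + 1) with no filter, 823, 813 and 818 genes were higher and 1486, 1454 and 1335 lower (35.6%, 35.9% and 38.0% higher), 4 of the 10 genes passed, 2 of them lower, and 18, 18 and 19 pathway genes were higher and 5 lower in each. With upper-quartile factors 2 pathway genes were lower. With the length correction 2252 genes were higher and 797 lower (73.9% higher). The sign of Ticam1 turned with upper-quartile factors (-0.0017), no composition factor (-0.0701) and the 3 limma fits (-0.063, -0.067 and -0.063), and those of Irak1 and Traf6 with the length correction (0.043 and 0.045) and with it and the block (0.043 and 0.048). The cause was not tested.

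Same-numbered NS and 4LPS samples had correlations of 0.496, -0.253 and 0.109 in their deviations from the group means. The highest correlations of NS replicates 1, 2 and 3 with a 4LPS sample of another number were -0.0711, 0.329 and 0.46. With 3 samples per group, these values cannot decide whether the numbers pair the samples. With the replicate number as a block, 1275 genes were higher and 1081 lower, Tnfaip3 passed (0.56, adjusted p = 0.00730) and 11 NF-κB targets were higher in place of 6. With the block and the length correction 2095 genes were higher, and 4 of the 10 passed, all higher, Tnfaip3 (0.65) and Irak2 (0.18) among them, and 11 NF-κB targets were higher.

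With each sample left out, 1150 to 2844 genes passed, 781 to 1629 higher and 363 to 1215 lower. Among pathway genes, 18 to 40 were higher and 1 to 2 lower, and of the 10 genes 2 to 3 passed. The 4LPS minus NS differences in the shares of Irak2 and Irak4 (0.435 and 0.108 percentage points) ranged from -0.106 to 1.24 and from -0.204 to 0.280, the negative values both without 4LPS replicate 2. The depth gave Irak3 76 to 95 counts per sample in NS and 145 to 220 in 4LPS.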
